A study of Homo sapiens with 7 samples.

Results

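The 9 genes described here are well-known long noncoding RNAs: MALAT1, NEAT1, H19, GAS5, TUG1, PVT1, MEG3, KCNQ1OT1 and HOTAIR. They were chosen by name, as the non-control spots of the array whose gene name equals one of these symbols, and they make up 9 of the 36337 gene names on the array. Together they have 54 probes of 60 bases, from 1 probe for GAS5 and KCNQ1OT1 to 12 probes for TUG1. Each probe was printed as a single spot.

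Long noncoding RNAs are transcripts that are spliced and capped like messenger RNAs in many cases but are not known for an encoded protein. Some act in the nucleus, as scaffolds of nuclear bodies or at chromatin, some are expressed from 1 parental allele in imprinted regions, and some are the hosts of small nucleolar RNAs (snoRNAs), which are cut out of their introns. In colon carcinoma cells several of the 9 have been studied as markers of growth and invasion.

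The samples, grown with 10% serum by the labels, were 4 replicates of HCT116 H2B-GFP, a diploid human colon carcinoma cell line whose chromosomes are labelled by a histone fused to a fluorescent protein. All 4 were treated with bafilomycin, an inhibitor of the vacuolar proton pump that blocks lysosomal acidification and autophagic flux, at 10 nM for 30 h. Each was hybridised to a single-colour (Cy3) Agilent array. The 3 untreated samples of the same line were not analysed here, so no value below is a response to bafilomycin, and every comparison is between the 4 replicates. The labels do not say whether the replicates were separate cultures, so their spread may be technical.

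Replicate 3 stood apart from the others before any gene was considered: the scanner software marked 2249 of its spots as outliers, against 514 to 725 on the other arrays. Between 55.6% and 60.4% of spots were well above background on the 4 arrays, and no spot was saturated. Markers of an epithelial line were present, with all 6 of the epithelial genes (EPCAM, CDH1, KRT8, KRT18, KRT19, CLDN7) well above background on every array, and so was the intestinal factor CDX2. The villus protein gene VIL1 was not well above background anywhere. Of the genes of other cell types, PECAM1, COL1A2, COL3A1 and PDGFRB were at background on each array, whereas probes for CD3E, CDH5, VWF, COL1A1 and 1 of the 5 PTPRC probes were on all 4.

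Transcripts of 8 of the 9 genes were detected, where detected means that at least 1 probe was well above background on each of the 4 arrays. The share over all gene names on the array was 52.5%. It was 70.8% for the 18653 names with an NM_ (messenger RNA) accession, 48.9% for the 2505 names with an NR_ (noncoding RNA) accession and 23.6% for the 8404 assembled transcripts named XLOC. KCNQ1OT1 was the gene not detected. Most of the 9 genes have several probes, and each is a further chance to pass this rule: when every probe of a gene had to pass, MALAT1, NEAT1, H19 and GAS5 were left. Of the 54 probes, 44 were well above background on all arrays (48.7% of the 50599 probes of the array were), 4 on some of them and 6 on none.

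Levels are given below as the log2 background-subtracted signal minus the median of the array, over the median of the probes of a gene. They are compared between arrays, never between probes, because probes differ in how well they bind. The median SD of the 8 detected genes was 0.17 on the log2 scale, beside 0.21 over the 19083 detected gene names. Without replicate 3 the 2 medians were close, at 0.154 for the 8 genes and 0.145 for all. Neither these medians nor the counts below are matched for the number of probes per gene, which is up to 12 for the members. The study's methods used 1.4-fold as the threshold for a changed gene, in ratios of aneuploid to diploid lines. Here the same number is set on the span between replicates, which is another measure. H19, TUG1 and HOTAIR spanned more than 1.4-fold between their lowest and highest array. That is 3 of 8, beside 46.4% of all detected genes. Without replicate 3 it was 1 of 8 (HOTAIR), beside 21.6%. Over detected probes alone the same 3 genes spanned more than 1.4-fold, beside 40.1%, and 23 of the 44 detected probes did, beside 43.5% of all.

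**Figure D1:**
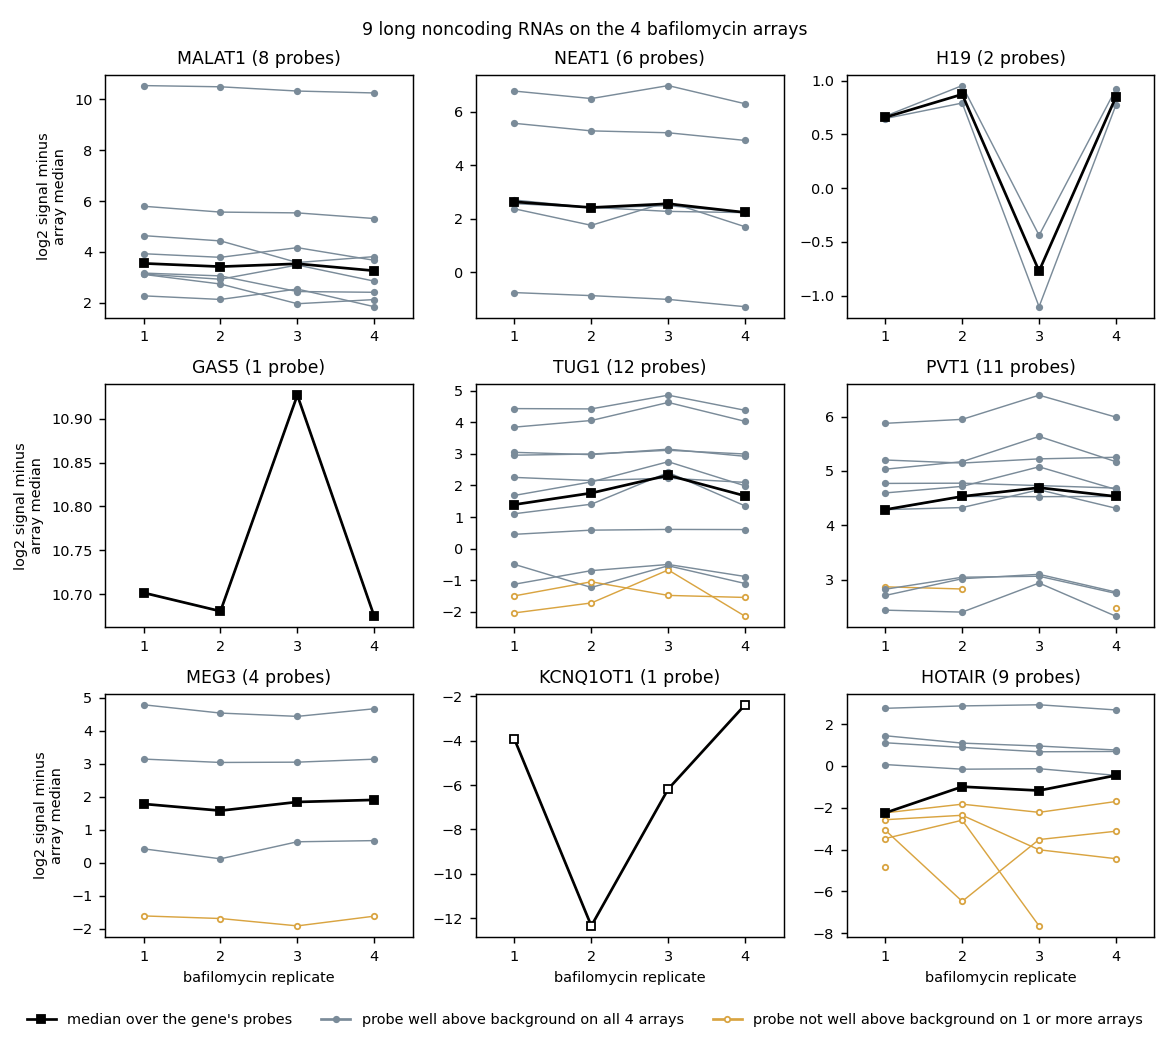
Each panel shows 1 gene, with the log2 signal minus the array median on the vertical axis (its own scale in each panel) and the 4 bafilomycin replicates on the horizontal axis. Black squares are the median over the gene's probes, grey points probes well above background on all 4 arrays and open points probes that were not; the lines join values of 1 probe and imply no order. Both H19 probes drop on replicate 3, while the 9 HOTAIR probes include 5 that were above background on no array.

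MALAT1 is a long, mostly unspliced nuclear RNA that gathers in nuclear speckles beside splicing factors, and its 3′ end is made by a cut that also releases a small transfer RNA-like molecule. The gene had 8 probes along the transcript NR_002819, and all were detected. The gene level was 3.55, 3.42, 3.54 and 3.26 on replicates 1 to 4, or 3.44 ± 0.13 (SD, n = 4), a span of 1.22-fold. Judged by this median, MALAT1 stayed within the 1.4-fold threshold.

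Its single probes did differ, and in opposite directions. The 6 probes nearest to the 3′ end of the transcript are printed because they fall into 2 runs that moved apart on replicate 3. They lie between chr11:65272646 and position 65273930 of the same chromosome (GRCh37, plus strand), and the number in each name is the position in the transcript. Capitals mark the hexamer AATAAA, the usual polyadenylation signal.
MALAT1 probe at 7413: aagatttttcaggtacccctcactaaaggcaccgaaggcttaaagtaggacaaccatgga
MALAT1 probe at 7640: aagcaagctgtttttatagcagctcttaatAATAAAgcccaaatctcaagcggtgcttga
MALAT1 probe at 8278: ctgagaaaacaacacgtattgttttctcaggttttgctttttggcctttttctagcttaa
MALAT1 probe at 8481: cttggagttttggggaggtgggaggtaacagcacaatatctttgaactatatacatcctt
MALAT1 probe at 8578: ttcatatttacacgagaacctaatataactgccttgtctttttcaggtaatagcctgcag
MALAT1 probe at 8638: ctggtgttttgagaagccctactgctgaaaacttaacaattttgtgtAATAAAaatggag
The hexamer was found in 5 of the 54 probes, and in 7.88% of all 50599 probes of the array (3.74% held its reverse complement, TTTATT). A match is a description of the letters and not of a used site.

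The probe at 7413 had log2 levels of 4.64, 4.43, 3.59 and 3.82 on replicates 1 to 4. The probe at 7640 had 3.17, 3.06, 2.45 and 2.42. The probe at 8278 had 3.12, 2.74, 1.97 and 2.13. In this first run, replicates 1 and 2 lay above replicates 3 and 4 without overlap, and the probes spanned 2.08-fold, 1.69-fold and 2.22-fold.

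The second run lies directly downstream. The probe at 8481 had 2.28, 2.14, 2.54 and 1.85, the probe at 8578 had 3.13, 2.93, 3.49 and 2.85, and the probe at 8638 had 3.93, 3.79, 4.17 and 3.67. Here replicate 3 was the highest array and replicate 4 the lowest in all 3 probes. Against the mean of the other arrays, replicate 3 was lower by the first run by a log2 difference of -0.71, -0.44 and -0.70, and higher by the second by 0.46, 0.52 and 0.37. Of the 4180 genes with at least 2 detected probes, 2.18% had 1 over 1.4-fold higher and another over 1.4-fold lower on replicate 3. In MALAT1 the probe at 8578 was the only probe over 1.4-fold higher. This count was chosen after the MALAT1 values were seen. It is not matched for probe number, and each of the 8 MALAT1 probes is a further chance to pass. The 2 probes nearest the 5′ end, at 1809 and 3386, differed from the other arrays by -0.10 and -0.02 on replicate 3.

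Replicates 1 and 4 differed in the same direction along the whole of MALAT1. Replicate 1 was above replicate 4 in 8 of 8 probes, where 62.3% of all detected probes were, and replicate 4 was the lowest array in 6 of 8, where 34.6% of all were. The 8 probes sample 1 RNA and are not replicates of each other. Probes of other names on the opposite strand, 4 named LOC100507645 and 1 named XLOC_009474, were also detected on all arrays. The XLOC_009474 probe, which lies across from the body of MALAT1, had levels of 3.29, 3.00, 3.60 and 3.22, so its highest array was replicate 3.

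NEAT1, the neighbour of MALAT1 on chromosome 11, is the RNA around which paraspeckles assemble, and is made in a short form and a long form that share their 5′ part. All 6 probes were detected. The gene level was 2.64, 2.42, 2.56 and 2.24, or 2.47 ± 0.17 (SD, n = 4), a span of 1.32-fold. Of the 6 probes, 4 are assigned to NR_028272. The last of these along the transcript, at 3616, is printed because it had the widest span of the 4 and the same highest array as the second MALAT1 run; it maps to chr11:65193885-65193944 (plus strand).
NEAT1 probe at 3616: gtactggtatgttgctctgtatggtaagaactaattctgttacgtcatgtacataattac
It had levels of 6.78, 6.50, 6.99 and 6.31, a span of 1.603-fold with replicate 3 highest and replicate 4 lowest. The widest span of all 6 was 1.91-fold, in the probe at 14330 of another record, AF001893. That probe had 2.38, 1.76, 2.64 and 1.70, with a log2 difference of 0.69 between replicate 3 and the mean of the others. The probe at 1606 of the same record had a difference of -0.04. Replicate 1 was above replicate 4 in each probe (6 of 6), beside 62.3% of all detected probes. Replicate 4 was the lowest array in 6 of 6, beside 34.6%. The 6 probes sample 1 gene and are not replicates of each other, and those at 1899 and 1940 share 19 bases.

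Genes of paraspeckle proteins were all detected (15 of 15), beside 52.5% of all gene names and 70.8% of those with an NM_ accession. The core members SFPQ, NONO and PSPC1 were among the 15. Of the 15, 10 spanned more than 1.4-fold, beside 46.4% of all detected genes, and 2 did without replicate 3, beside 21.6%. The widest were HNRNPK (1.89-fold), TAF15 (1.85-fold), MATR3 (1.68-fold), TARDBP (1.55-fold) and RBM14 (1.52-fold). Over its 3 detected probes RBM14 spanned 1.37-fold, since a probe on no array enters its median. Replicate 3 was the highest array for 11 of the 15, beside 48.5% of all detected genes, among them TAF15 at 7.05, 6.78, 7.66 and 7.06 and MATR3 at 5.02, 5.27, 5.77 and 5.12. Of the protein-coding genes beside NEAT1 and MALAT1, FRMD8 spanned 1.77-fold and LTBP3 1.72-fold, each with replicate 3 lowest, and SLC25A45 spanned 1.08-fold. A probe on no array also enters the LTBP3 median. Its detected probe was at 6.95, 6.94, 6.21 and 6.36, a span of 1.68-fold.

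H19 is an imprinted RNA expressed from the maternal allele, next to the growth factor gene IGF2 on chromosome 11, and is the precursor of a microRNA. It showed the largest drop on a single array among the 8 detected genes. The 2 probes are printed because both carried the drop. They lie in the 3′ part of NR_002196, at chr11:2016961-2017020 and chr11:2016674-2016733 (minus strand), and do not overlap.
H19 probe at 1693: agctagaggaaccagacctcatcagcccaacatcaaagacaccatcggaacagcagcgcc
H19 probe at 1980: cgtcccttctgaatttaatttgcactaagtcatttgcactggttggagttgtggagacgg
The probe at 1693 had levels of 0.65, 0.79, -1.10 and 0.77 on replicates 1 to 4, from background-subtracted signals of 121, 121, 32.7 and 108. The probe at 1980 had levels of 0.67, 0.95, -0.44 and 0.92, from signals of 123, 136, 51.8 and 120. In both, replicates 1, 2 and 4 lay close together and replicate 3 lay below them, and each probe was still well above background there.

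The gene level of H19 was 0.66, 0.87, -0.77 and 0.85, or 0.40 ± 0.79 (SD, n = 4). Replicate 3 was below the mean of the other arrays by a log2 difference of -1.56, and the span was 3.12-fold. Without replicate 3 the SD was 0.12 and the span 1.16-fold. Among the 4180 genes with at least 2 detected probes, H19 was the 1 gene whose detected probes were each more than 2-fold lower on replicate 3 (0.0239%). That rule was drawn from H19 after its values were seen, so the count is a description only. It is not matched for signal or probe number, and H19 has 2 probes, the fewest the rule admits. Taking off the GC trend of each array, described below, left the difference at -1.57. Normexp background correction with quantile normalization brought it to -0.78 and the span to 1.83-fold. That correction adds an offset of 50 to each signal, which shrinks log2 differences between signals as low as those of H19.

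The genes around H19 did not share the drop. IGF2, expressed from the paternal allele, was at 3.93, 3.79, 3.73 and 3.79, a span of 1.14-fold. MRPL23, a mitochondrial ribosomal protein gene on the other side, was at 5.48, 5.52, 5.64 and 5.46. A probe of the transcript XLOC_009024, opposite to H19, was on no array. In the next imprinted domain of the same chromosome arm, the growth inhibitor CDKN1C was at 8.10, 8.26, 8.35 and 7.98, SLC22A18 at 7.38, 7.37, 7.47 and 7.15, and PHLDA2 at 10.45, 10.44, 10.77 and 10.42. Replicate 3 was the highest array for MRPL23, CDKN1C, SLC22A18 and PHLDA2.

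**Figure D2:**
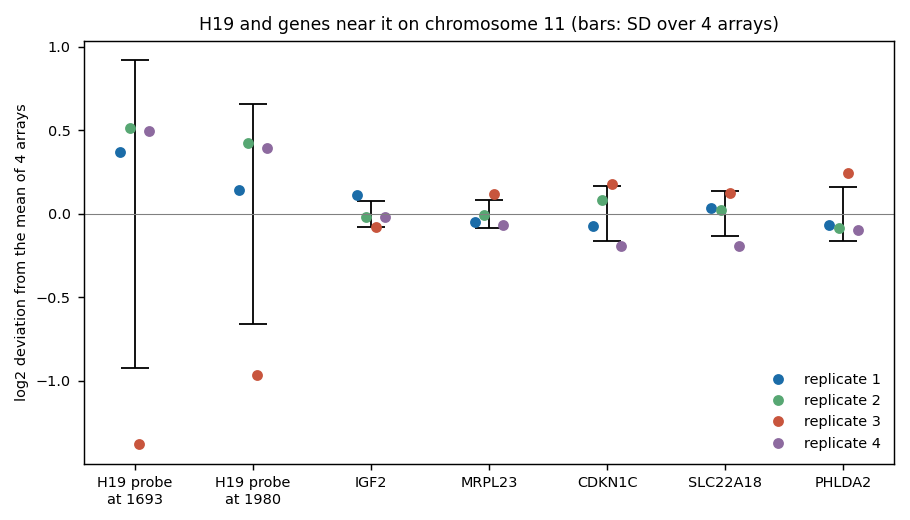
The 2 H19 probes and 5 genes near it in the genome are on the horizontal axis, and the vertical axis is the log2 deviation of each replicate from the mean of the 4 arrays. Bars are ± 1 SD over the 4 arrays. Replicate 3 lies at -1.38 and -0.97 for the H19 probes, and between -0.08 and 0.25 for the other 5 genes.

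KCNQ1OT1, the long antisense RNA in an intron of KCNQ1 that silences its neighbours on the paternal allele, belongs to the same chromosome arm. Its single probe is printed because it is the 1 probe on which the missing call rests, and it lies far along the transcript, at position 59366 of NR_002728 and chr11:2661803-2661862 (minus strand).
KCNQ1OT1 probe at 59366: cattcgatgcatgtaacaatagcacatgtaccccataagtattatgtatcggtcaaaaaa
The background-subtracted signals were 5.05, 0.0134, 0.970 and 12.2, none well above background, so no level or fold is given. Its host KCNQ1 had 1 detected probe, at 4.00, 4.14, 4.25 and 3.97. The other KCNQ1 probe was on no array, which moved the median over both to a span of 17.8-fold where the detected probe alone spanned 1.21-fold.

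MEG3, a maternally expressed RNA with growth-inhibiting activity from the imprinted DLK1 region of chromosome 14, had 4 probes, of which 3 were detected. The gene level over all 4 probes was 1.78, 1.58, 1.84 and 1.90, or 1.78 ± 0.14 (SD, n = 4). Over the 3 detected probes it was 3.14, 3.04, 3.05 and 3.14, or 3.09 ± 0.06, the values of the probe at 1490. Replicate 3 differed from the mean of the others by 0.09 over all probes and by -0.06 over the detected probes. The array order was not shared by its probes. The probe at 822 (chr14:101295974-101296033, plus strand) had 4.79, 4.54, 4.44 and 4.67. The probe at 1657 (chr14:101327286-101327345) had 0.42, 0.12, 0.63 and 0.67. The probe at 1490 of the record AK124580 had 3.14, 3.04, 3.05 and 3.14, a span of 1.07-fold and the least among the 3. The remaining probe, at 942 of NR_033359, was above background on 2 arrays.
The first 2 are printed because they put replicate 3 lowest and second highest.
MEG3 probe at 822: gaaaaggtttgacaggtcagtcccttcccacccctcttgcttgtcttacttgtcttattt
MEG3 probe at 1657: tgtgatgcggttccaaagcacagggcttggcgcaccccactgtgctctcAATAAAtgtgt
Of the genes beside MEG3, DLK1 had 1 of 2 probes detected, at 1.38, 1.24, 1.16 and 1.05. MEG8 was not detected, and RTL1 was above background on no array.

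GAS5 is the host of a row of box C/D snoRNAs, and its spliced RNA accumulates when growth stops. It was measured by 1 probe, printed because the whole gene call rests on it, at position 562 of NR_002578 and chr1:173833049-173833108 (minus strand).
GAS5 probe at 562: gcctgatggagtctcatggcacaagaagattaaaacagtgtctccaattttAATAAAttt
Its level was 10.702, 10.68, 10.93 and 10.67, or 10.75 ± 0.12 (SD, n = 4), from signals of 128327, 115035, 136669 and 103719. Replicates 1, 2 and 4 lay within 1.02-fold of each other and replicate 3 was above them, for a span of 1.19-fold. No spot reached saturation.

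Of the 17 other snoRNA hosts listed, 16 were detected, all but SNHG4, beside 52.5% of all gene names. Replicate 3 was the highest array for 12 of the 16, beside 48.5% of all detected genes. More than 1.4-fold was spanned by SNHG8 (186.7-fold), SNHG1 (1.45-fold) and SNHG15 (1.44-fold), and over detected probes alone by SNHG15. The SNHG8 value came from a second probe that was on no array: its detected probe was at 9.05, 9.14, 9.44 and 9.07, a span of 1.32-fold. SNHG1 also had a second probe that was not detected. Its detected probe was at 7.35, 7.44, 7.60 and 7.37, a span of 1.19-fold with replicate 3 highest, where the median over both put replicate 3 lowest. The arrays also carried 8 probes named after snoRNAs of the GAS5 introns, of which 5 were detected, and replicate 3 was the highest array for 1 of the 5, beside 50.4% of all detected probes. SNORD47 was at 4.00, 4.20, 4.13 and 3.64, and SNORD80 at 3.09, 3.13, 3.16 and 2.95. Probes of this length over an intron can also bind the unspliced host RNA, so snoRNA and host cannot be told apart here. The neighbour ZBTB37 was not detected.

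TUG1, an RNA first described in the developing retina and found both in the nucleus and in the cytoplasm, had the largest rise on replicate 3. Of its 12 probes on NR_002323 (chromosome 22, plus strand), 10 were detected. The gene level over all 12 probes was 1.39, 1.76, 2.32 and 1.67, or 1.79 ± 0.39 (SD, n = 4), a span of 1.90-fold. Over the 10 detected probes it was 1.97, 2.13, 2.58 and 2.04, or 2.18 ± 0.28, a span of 1.53-fold. Replicate 3 was the highest array by both measures. Its log2 difference from the mean of the others was 0.71 over all probes and 0.53 over the detected probes. Over all probes without replicate 3, the SD was 0.19 and the span 1.29-fold.

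The rise was not even along the transcript. The 3 probes that carried most of it are printed, the first 2 of which adjoin each other. They lie between chr22:31374204 and position 31374659.
TUG1 probe at 5927: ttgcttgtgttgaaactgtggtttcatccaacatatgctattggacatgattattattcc
TUG1 probe at 5987: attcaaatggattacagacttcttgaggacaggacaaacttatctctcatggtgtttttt
TUG1 probe at 6323: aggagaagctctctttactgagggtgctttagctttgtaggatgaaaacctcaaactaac
The probe at 5927 had levels of 1.10, 1.41, 2.41 and 1.35. The probe at 5987 had 1.68, 2.11, 2.75 and 1.99, and the probe at 6323 had 3.85, 4.06, 4.63 and 4.03. In all 3, replicate 3 was highest and replicate 1 lowest, and the spans were 2.48-fold, 2.10-fold and 1.72-fold. Their mean difference between replicate 3 and the other arrays was 0.87, and 0.57 once the GC trend of each array was taken off. The probes at 5927 and 5987 are of 35% GC, the probe at 6323 of 41.7%, and the probes just upstream of 43.3% to 45%. Further downstream, the probe at 6964 is also of 35% GC, with a difference of 0.06 on replicate 3. The probe at 7000 is of 28.3% GC, with a difference of 0.40. Just upstream, the probes at 5387, 5646 and 5728 spanned 1.12-fold, 1.11-fold and 1.17-fold, and downstream the probe at 6964 spanned 1.11-fold, while the probe at 7000, which shares 24 bases with it, spanned 1.54-fold. Over the 10 detected probes, replicate 3 was the highest array in 8, beside 50.4% of all detected probes, and replicate 1 the lowest in 6, beside 27.9%. The neighbour MORC2, which starts on the other strand, was at 3.00, 3.09, 2.63 and 2.63. A probe of the assembled transcript XLOC_002730 lies on the same strand as TUG1, between its probes at 3650 and 3848. It was at 4.42, 4.30, 4.63 and 4.69, with replicate 4 highest and a difference of 0.16 on replicate 3.

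PVT1, the noncoding neighbour of the MYC oncogene, had 11 probes. Of these, 10 were detected, and 1 was marked as an outlier on replicate 3 and had no value there. The gene level was 4.29, 4.53, 4.69 and 4.53, or 4.51 ± 0.17 (SD, n = 4), a span of 1.32-fold. That median holds 1 probe fewer on replicate 3. Over the 10 detected probes the level was 4.44, 4.62, 4.69 and 4.60, or 4.59 ± 0.11, a span of 1.19-fold. The log2 difference of replicate 3 from the mean of the others was 0.24 by the first measure and 0.14 by the second. Replicate 3 was the highest array in 7 of the 10 detected probes, beside 50.4% of all, and the difference again varied with the position. The probes at 1413 and 1430, which share 43 bases, had log2 differences of -0.01 and 0.02 between replicate 3 and the mean of the others. The next 4 probes of NR_003367, at 1494, 1507, 1567 and 1805, had 0.34, 0.42, 0.51 and 0.46, of which the first 2 share 47 bases. The probe of another record, BX648921, had 0.55. MYC itself had 1 detected probe, at 8.46, 8.81, 9.13 and 8.74, a 1.595-fold span with replicate 3 highest and replicate 1 lowest, as in the PVT1 level. The median over both MYC probes spanned 1.84-fold and put replicate 1 highest and replicate 2 lowest.

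**Figure D3:**
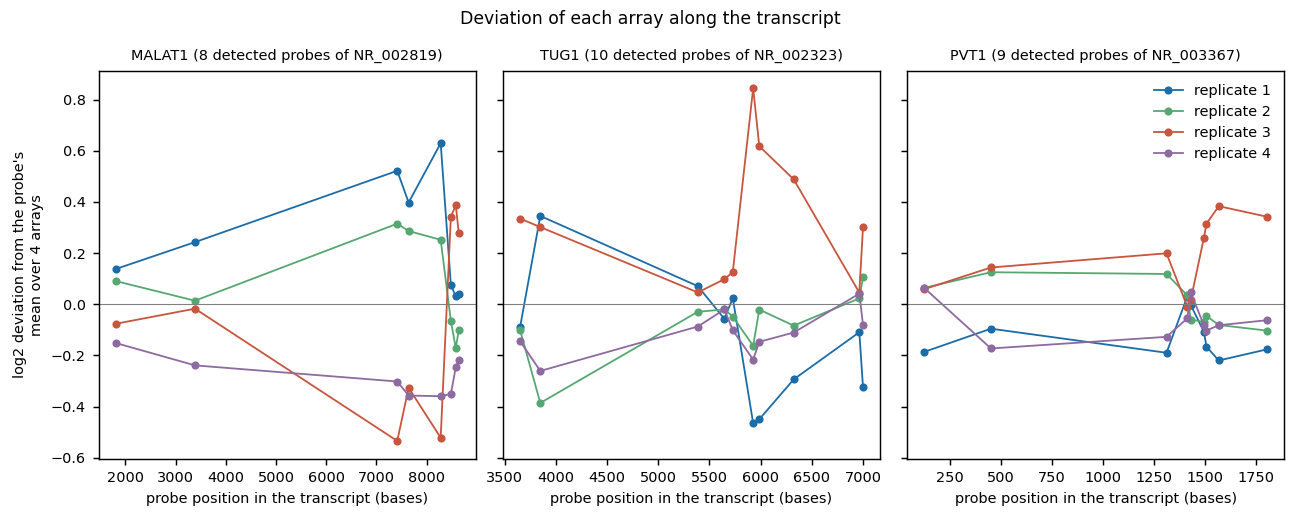
The horizontal axis is the position of each detected probe in the transcript, in bases, and the vertical axis is the log2 deviation of each replicate from that probe's mean over the 4 arrays. In MALAT1, replicate 3 (red) goes from -0.52 at 8278 to 0.34 at 8481; in TUG1 it peaks at 0.84 at 5927; in PVT1 it goes from 0.02 at 1430 to 0.26 at 1494.

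HOTAIR is transcribed from the HOXC cluster on chromosome 12, antisense to the HOXC genes, and is known for binding Polycomb repressive complex 2 (PRC2). It had 9 probes, of which 4 were detected and 5 were above background on no array. The gene level over all probes with a positive signal was -2.24, -0.99, -1.18 and -0.45, or -1.22 ± 0.75 (SD, n = 4), which put replicate 1 lowest. Over the 4 detected probes it was 1.27, 0.99, 0.81 and 0.72, or 0.95 ± 0.24, which put replicate 1 highest. Between 7 and 9 probes entered the first measure on an array, so its span of 3.46-fold comes from probes near background, and the span over the detected probes was 1.46-fold.

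The detected HOTAIR probes are printed because the detected call rests on them. They lie at chr12:54361115-54361174, chr12:54350159-54350218, chr12:54356419-54356478 and chr12:54356096-54356155 (minus strand). The last holds the hexamer AATAAA.
HOTAIR probe at 119: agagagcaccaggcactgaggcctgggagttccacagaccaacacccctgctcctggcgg
HOTAIR probe at 486: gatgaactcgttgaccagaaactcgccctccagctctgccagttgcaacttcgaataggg
HOTAIR probe at 1950: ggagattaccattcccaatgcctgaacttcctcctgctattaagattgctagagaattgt
HOTAIR probe at 2273: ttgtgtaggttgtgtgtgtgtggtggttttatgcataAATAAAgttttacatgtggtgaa
The probe at 119 had levels of 1.11, 0.88, 0.67 and 0.69. The probe at 486, which belongs to an assembled transcript named after HOTAIR, had 1.44, 1.09, 0.95 and 0.76. It lies outside the stretch covered by the NR_003716 probes, beside the HOXC12 probe that starts at chr12:54350226 on the other strand. Whether it reads HOTAIR itself was not tested, though it enters the level over the detected probes. The probe at 1950 had 0.06, -0.16, -0.14 and -0.45, and the probe at 2273 had 2.75, 2.87, 2.92 and 2.67. Replicate 1 was the highest array in 3 of the 4, the probe at 486 among them, beside 19.7% of all detected probes. It was above replicate 4 in 4 of 4, beside 62.3% of all detected probes. Probes of the same NR_003716 record disagreed on whether the RNA was above background: those at 119, 1950 and 2273 were above it on all 4 arrays, and those at 684, 1708, 1749 and 1812 on none.

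Among the HOXC genes around HOTAIR, 1 of 4 was detected, beside 52.5% of all gene names. HOXC12 was on no array, HOXC10 and HOXC11 were not detected, and HOXC13 was at 0.16, 0.24, 1.06 and -0.0039, a span of 2.09-fold. The subunits and partners of PRC2 were all detected (11 of 11), beside 52.5% of all gene names and 70.8% of those with an NM_ accession. Of the 11, 6 spanned more than 1.4-fold, beside 46.4% of all detected genes, and 0 without replicate 3, beside 21.6%. The widest were JARID2 (1.78-fold), RBBP4 (1.63-fold), AEBP2 (1.62-fold), EZH1 (1.51-fold) and MTF2 (1.46-fold). The catalytic subunit EZH2 was at 4.38, 4.62, 4.58 and 4.35. Replicate 3 was the highest array for 9 of the 11, beside 48.5% of all detected genes.

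Of 30 other named long noncoding RNAs listed, 25 were on the array and 16 of those were detected, beside 52.5% of all gene names. HOTTIP, HULC, LINC00261, MIR155HG and PCA3 were among the 6 on no array. Those spanning more than 1.4-fold were MIR17HG (1.93-fold), IPW (1.47-fold), MIAT (1.46-fold), LINC00152 (1.44-fold) and, just past the threshold, HOTAIRM1. These 5 of 16, beside 46.4% of all detected genes, became 3 over detected probes alone, beside 40.1%. IPW, with 8 of 11 probes on no array, and MIAT, with 7 of 14, each spanned 1.25-fold over detected probes. Replicate 3 was the highest array for 6 of the 16, beside 48.5%. MIR17HG, the host of a microRNA cluster, was lowest there, at -0.05, -0.07, -0.99 and -0.73.

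**Figure D4:**
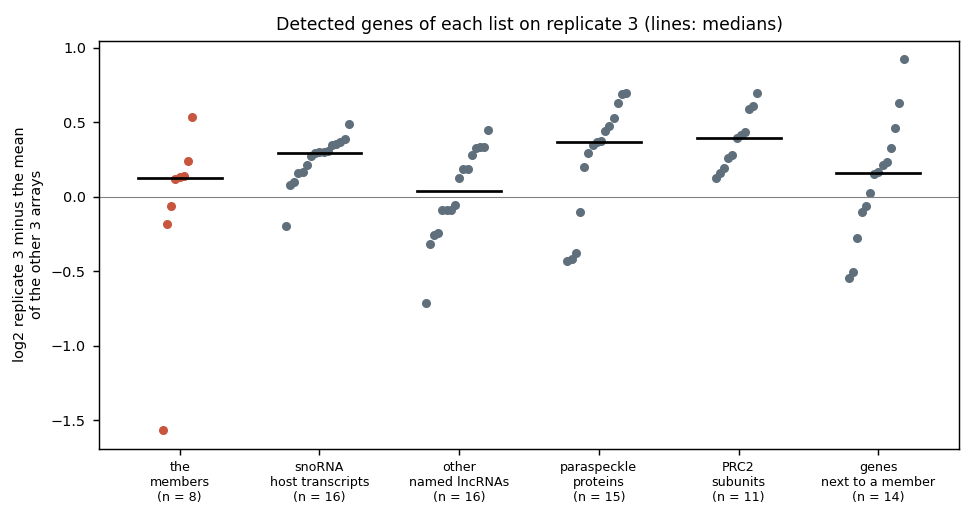
Each point is a detected gene, and the vertical axis is its log2 level on replicate 3 minus the mean of the other 3 arrays, over its detected probes. Black lines are the medians of the lists on the horizontal axis. The medians are 0.13 for the 8 members, 0.30 for snoRNA hosts, 0.04 for other named long noncoding RNAs, 0.37 for paraspeckle proteins, 0.40 for PRC2 subunits and 0.16 for genes next to a member, beside 0.13 over all detected genes; H19 is the lowest point at -1.56.

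Over all detected probes, the difference between replicate 3 and the other arrays moved with the base composition of the probe. The Spearman correlation of the difference with GC content was -0.44 across 24633 probes, and -0.36 across the 44 detected probes of the 9 genes. These probes share 4 arrays and are not independent. Probes of 30 to 35% GC had a median difference of 0.35, and probes of 50 to 55% GC had -0.08. Several of the TUG1, NEAT1 and GAS5 probes are of 35% GC. Of the 44 probes, 7 were over 1.4-fold higher on replicate 3 and 4 were lower, beside 12.7% and 8.25% of all detected probes. With the GC trend taken off each array, the TUG1 difference was 0.43 and that of PVT1 0.34, over all probes with a value. In 4 genes the sign changed. GAS5 went from 0.24 to -0.11 and MALAT1 from 0.12 to -0.10. NEAT1 went from 0.13 to -0.06 and HOTAIR from 0.05 to -0.09. Over its detected probes alone, HOTAIR was at -0.18 before any correction. The correction also takes off the offset of each array, which on replicate 3 had a median of 0.13 over all detected genes. The parts of offset and GC content in these changes were not told apart. After the same correction, the first MALAT1 run was at -0.85 and the second at 0.16. The part of GC content in these differences was not tested further. By Dixon's ratio, a rule for 1 value lying apart from 3 others, 2 of the 8 detected genes (H19 and GAS5) and 6 of their 44 probes had an array apart, beside 8.48% of all detected genes and 7.3% of all detected probes.

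**Figure D5:**
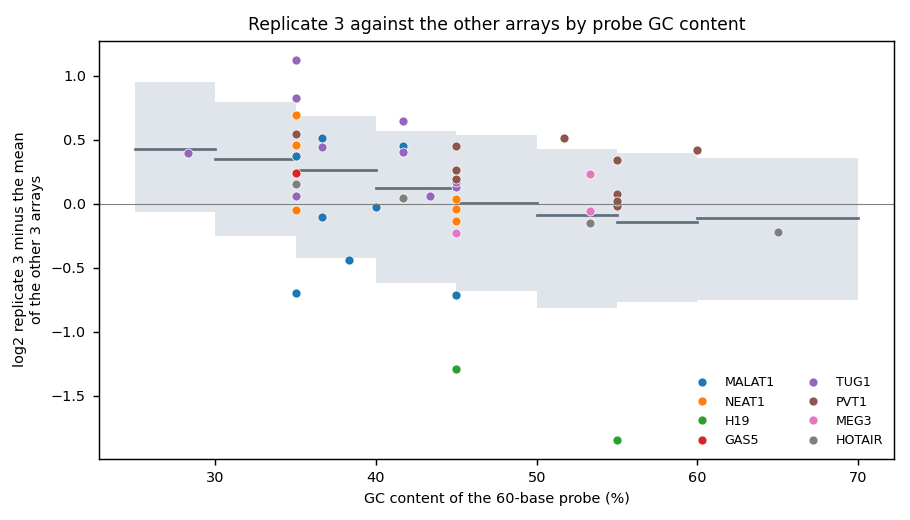
The horizontal axis is the GC content of the probe in percent, and the vertical axis is the log2 difference of replicate 3 from the mean of the other 3 arrays. Lines are the medians and bands the 5th to 95th percentile of all detected probes in a GC class, and points are the 44 detected probes of the 8 genes. Both H19 probes, at -1.84 and -1.29, lie below the band.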

How the data were processed

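For each array, labelled from 100 ng of RNA, the authors deposited the output of Agilent Feature Extraction 10.7.3.1. Its intensity values had been corrected for background, were not log transformed and were not normalized between arrays. All 4 arrays lay on 1 slide, so slide could not be tested. Probe coordinates are those of GRCh37.

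As in the study's methods, the log2 background-subtracted signal minus the array median was computed, and the median over probes taken per gene. Control and outlier spots were left out, as were signals at or below 0 on the array concerned. A probe was detected when over 50% of its spots were well above background on every array. With 1 group there was no test. The members and lists were chosen with earlier results of these data known. From each list, the genes next to a member, up to 5 of the widest span and up to 5 at background on every array are named; EZH2, the core paraspeckle genes and SNORD47 and SNORD80 were added after their values were seen. Older symbols were matched through a gene table of GRCh38.p14. Alternatives used limma 3.58.1 and R 4.3.3, and the other steps Python 3.11.15 and pandas 2.3.3, tested on simulated data. Some genes and 1 probe that the rule would name are not reported here.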

Additional observations from a re-analysis of the deposited data

Results flagged for a closer look

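In each of these results, a single array lay apart from its 3 neighbours for the range of the 4 values. The gap to the nearest value, divided by the whole range (Dixon's ratio), exceeded the 95% critical value for 4 values. A value can pass at a small span. Of 67 values examined, 9 passed. Chance gives about 5%, and on these arrays 8.48% of all detected genes and 7.3% of all detected probes passed. The values overlap, since GAS5 and its probe are the same value and the H19 level is made from its probes. For H19 the ratio was 0.870 at the gene level and 0.924 for the probe A_19_P00323082, with replicate 3 lowest in both. For GAS5 it was 0.893, the same for the gene and for its single probe A_33_P3326285, with replicate 3 highest at a span of 1.19-fold. For TUG1 it was 0.887 for the probe A_23_P68868, with replicate 3 highest, and 0.855 for A_33_P3371270, with replicate 1 lowest. These probes spanned 1.39-fold and 1.11-fold. For PVT1 it was 0.980 for A_33_P3248227, with replicate 1 lowest, and 0.897 for A_19_P00321076, with replicate 3 highest. Their spans were 1.19-fold and 1.29-fold. For PHLDA2, near H19 in the genome, it was 0.913, with replicate 3 highest at a span of 1.27-fold.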

How the results depend on the processing

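No paired analysis was possible because the untreated samples were not analysed here and the 4 arrays form a single group. The count of detected members was 8 under each alternative except where every probe had to be well above background, which left 4. The count spanning more than 1.4-fold was 3, and lay between 1 and 3 with 1 array left out, the lowest being without replicate 3. It was 5 with the mean over probes. The median SD was 0.12 after normexp and quantile normalization and 0.23 with the mean over probes, and 0.15 to 0.21 with 1 array left out. The H19 difference on replicate 3 was -0.78 after normexp and quantile normalization, which were changed together, and -1.52 to -1.68 under the others. The normexp setting adds an offset of 50 to each signal, which shrinks log2 differences between low signals. How much of the change came from the offset was not tested. Of 89 alternative values of member levels, 23 moved by more than their SD, 8 of them with the processed signal, which is set to another centre. H19, TUG1 and the first MALAT1 run, which passed 1.4-fold on replicate 3, kept their sign under each alternative, but not always that size. The TUG1 difference fell below 1.4-fold after normexp and quantile normalization (0.47), with the mean over probes (0.45) and with the GC trend taken off (0.43), and the first MALAT1 run did without replicate 1 (-0.43). Of the differences on replicate 3, 21 of 110 alternative values moved by more than the SD of the other arrays. The GC correction and the differences on replicate 3 were chosen after seeing the data. With 4 arrays of 1 group, HOTAIR and KCNQ1OT1 signals near background limit what can be said of them.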
